A study of Mus musculus with 8 samples.

Results

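Transcripts of 10 genes of the heat shock response and of the unfolded protein response (UPR) were followed across the cell lineages of mouse inguinal white fat under unrestricted and timed feeding. The members were Hspa1a, Hspa1b, Hspa8, Hsph1 and Dnajb1 for the cytosolic response, and Hspa5, Dnajb9, Xbp1, Ddit3 and Ppp1r15a for the response of the endoplasmic reticulum (ER). They were taken by gene symbol, and their counts of unique molecular identifiers (UMIs, 1 per captured transcript) were summed per library within lineages gated on marker genes. In the count tables these symbols take 11 of 32285 rows, because Ddit3 is listed under 2 identifiers. The row ENSMUSG00000116429 held 0 UMIs in the gates, so Ddit3 below stands for ENSMUSG00000025408.

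C57BL/6 mice (C57BL/6J in the study) either had food at all times (Ad-Lib, libraries 1, 3, 5 and 7) or received it only in 2 windows of the night, twice-a-night feeding (TAN, libraries 2, 4, 6 and 8). The groups shared strain, tissue and the labelled digestion temperature, and neither carried an engineered allele or received a drug. Their age is uncertain, being 8 weeks by the labels but higher, in males, by the study's own account. The study describes males several months old, kept on regular chow under either schedule for months. From the inguinal depot the stromal vascular fraction, which is the non-adipocyte cells freed by collagenase at 37 °C, was sequenced by 10x 3′ single-cell RNA-seq. The study treats the libraries as separate animals, which the labels do not state, so every p below measures the spread between libraries, part of which may be technical.

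Heat shock proteins are chaperones that hold and refold proteins, and their inducible members are switched on by the transcription factor HSF1. Hspa1a and Hspa1b encode the inducible HSP70, Hspa8 the constitutive HSC70, Dnajb1 an HSP40 co-chaperone that hands clients to HSP70, and Hsph1 the HSP110 that exchanges its nucleotide. The UPR senses unfolded protein in the ER through IRE1, PERK and ATF6. IRE1 splices the mRNA of Xbp1, a transcription factor for secretory genes, while PERK slows translation and raises ATF4, upstream of Ddit3 (CHOP) and of Ppp1r15a (GADD34), a phosphatase subunit that lets translation resume. Hspa5 encodes BiP, the HSP70 of the ER lumen, and Dnajb9 its co-chaperone ERdj4. In fat, secretory cells such as plasma cells are known for high Xbp1, and both immediate early genes and heat shock genes are known to respond to the enzymatic digestion of tissue.

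On GRCm38, Hspa1b (chr17:34956436-34959238, minus strand) and Hspa1a (chr17:34969190-34972156, minus strand) are neighbours with near-identical sequence, so their UMIs can be misassigned between them and were also summed. Hspa8 lies at chr9:40800984-40810087 on the plus strand, Hsph1 at chr5:149614287-149636376 on the minus strand and Dnajb1 at chr8:83608193-83612653 on the plus strand. Of the ER members, Hspa5 lies at chr2:34771970-34777547, Xbp1 at chr11:5520659-5525893 and Ddit3 at chr10:127290774-127296288, all on the plus strand. Dnajb9 lies at chr12:44205559-44210326 and Ppp1r15a at chr7:45522916-45526268, both on the minus strand.

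The response elements that name these pathways can be read in some of the promoters. RefSeq (GRCm38.p6) gave a promoter for 9 of the 10 members, not for Hspa8, and the 250 bases before each start were searched on both strands. The sequences below, 1 entry per gene, are those that held a searched motif, shown because their genes are the ones the later comparisons turn on, with Hspa5 as the ER counterpart. Capitals mark the match: a heat shock element (GAANNTTC or TTCNNGAA), the ER stress response element (CCAAT, then after 9 bases CCACG) or a cyclic AMP response element (TGACGTCA).
Hspa1a, chr17:34972157-34972406, minus strand: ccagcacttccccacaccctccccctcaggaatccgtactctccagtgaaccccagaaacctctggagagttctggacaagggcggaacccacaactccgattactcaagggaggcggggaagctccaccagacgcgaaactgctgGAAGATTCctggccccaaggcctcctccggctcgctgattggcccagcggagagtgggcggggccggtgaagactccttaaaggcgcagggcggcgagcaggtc
Hspa1b, chr17:34959239-34959488, minus strand: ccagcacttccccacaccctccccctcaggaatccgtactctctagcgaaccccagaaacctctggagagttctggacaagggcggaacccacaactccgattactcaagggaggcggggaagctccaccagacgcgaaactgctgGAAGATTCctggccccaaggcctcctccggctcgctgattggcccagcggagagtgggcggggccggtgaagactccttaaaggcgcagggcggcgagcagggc
Hsph1, chr5:149636337-149636586, minus strand: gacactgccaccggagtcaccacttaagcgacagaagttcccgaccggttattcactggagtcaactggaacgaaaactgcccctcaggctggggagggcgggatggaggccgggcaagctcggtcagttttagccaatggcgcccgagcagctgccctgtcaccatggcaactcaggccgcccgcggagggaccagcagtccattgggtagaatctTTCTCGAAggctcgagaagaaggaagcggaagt
Hspa5, chr2:34771840-34772089, plus strand: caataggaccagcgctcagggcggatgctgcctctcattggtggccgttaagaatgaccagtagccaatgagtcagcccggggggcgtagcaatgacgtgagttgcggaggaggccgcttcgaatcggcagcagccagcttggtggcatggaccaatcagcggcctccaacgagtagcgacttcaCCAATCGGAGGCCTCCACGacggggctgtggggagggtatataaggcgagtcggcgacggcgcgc
Ppp1r15a, chr7:45526269-45526518, minus strand: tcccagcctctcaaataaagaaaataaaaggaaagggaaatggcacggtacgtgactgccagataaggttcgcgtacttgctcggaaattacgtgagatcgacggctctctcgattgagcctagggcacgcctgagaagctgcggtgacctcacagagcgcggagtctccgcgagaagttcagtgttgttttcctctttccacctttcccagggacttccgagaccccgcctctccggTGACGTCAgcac

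The Hspa1a and Hspa1b promoters differed at 3 of the 250 bases and carried the same heat shock element starting 104 bases before the start. Hsph1 held one 33 bases before the start of the entry shown, which is 54 bases before that of its second entry, Hspa5 an ER stress response element 65 bases before and Ppp1r15a a cyclic AMP response element 12 bases before. Of 32817 promoters of the same length, 12.8% held either form of the heat shock element, 1.55% the cyclic AMP response element and 0.113% the ER stress response element. The UPR element TGACGTGG (0.564% of promoters) and the ATF4 composite TGATGNAA (3.45%) were found in none of the 9. The promoters of Dnajb1, Dnajb9, Ddit3 and Xbp1 held none of the searched letters, from which nothing follows about the factors. A match is a description of letters, not a site.

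The tables held 232345333 UMIs in 44427 barcodes, 25320800 to 37140950 UMIs per library, and 36370 cells passed the filters. A cell belonged to a lineage if it held at least 1 UMI of the gate gene and none of the other 4, which placed 7682 Pdgfra+ progenitors, 8084 Pecam1+ endothelial cells, 4535 C1qa+ macrophages, 2147 Cd3e+ T cells and 1855 Cd79a+ B cells. Progenitors were split by their leading marker pair into 2974 Dpp4+ Pi16+, 2323 Icam1+ Col15a1+ and 1895 F3+ Gdf10+ cells. Check markers of each gate were detected in it: the summed level of 5 markers was 20605 to 29614 CPM (UMIs of a gene per 1000000 UMIs of the summed cells) for the progenitor set in progenitors and 7271 to 8693 CPM for the macrophage set in macrophages. It was 3256 to 3777 CPM for the endothelial set in endothelial cells, 2106 to 2676 CPM for the T cell set in T cells and 646 to 2728 CPM for the B cell set in B cells. The B cell gate also held plasma cell markers, 4 genes that summed to 1314 to 29389 CPM in Ad-Lib and 253 to 12959 CPM in TAN, above the B cell set in some libraries. The median mitochondrial share of the kept cells was 1.76% to 2.38% in the Ad-Lib libraries and 2.69% to 3.64% in the TAN libraries, without overlap. Pairs of libraries shared 2 to 14 barcodes. The B cell gate held 20 to 457 cells per Ad-Lib library and 86 to 508 per TAN library, and its values rest on 20, 21 and 44 cells in Ad-Lib 7, 1 and 5.

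Each member had its own distribution over the lineages, and macrophages and progenitors headed the order for most of them. Levels are CPM, given as the mean ± SD over all 8 libraries. Neighbours in the order of a member were compared within libraries by a two-sided exact sign-flip permutation test, adjusted over 40 comparisons (smallest reachable p 0.0078, 0.0208 adjusted). Levels were not compared between members.

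The inducible HSP70 copies ranged widely over the lineages. Hspa1a stood at 176 ± 23.7 CPM in macrophages, 75.5 ± 19.9 in progenitors and 34.3 ± 6.06 in endothelial cells, each step in the same direction in 8 of 8 libraries (exact permutation test, adjusted p = 0.0208). T cells (6.98 ± 9.81 CPM) and B cells (4.47 ± 5.86 CPM) did not differ beyond their spread (adjusted p = 0.802, exact permutation test). These values rest on 53 Hspa1a UMIs in all T cells and 21 in all B cells. Hspa1b did not follow its copy at the top of the order. It stood at 48.0 ± 6.67 CPM in progenitors against 36.9 ± 11.4 in macrophages (adjusted p = 0.0625, exact permutation test), followed by endothelial cells at 17.5 ± 3.33 CPM. In the T cell gate the Hspa1b value of Ad-Lib 1, 38.3 CPM, stood apart from 1.65 to 4.22 CPM in the other Ad-Lib libraries and 1.24 to 4.71 CPM in TAN.

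The constitutive HSC70 gene was more even. Hspa8 was at 1739 ± 135 CPM in macrophages, 1426 ± 196 in endothelial cells, 1216 ± 162 in progenitors, 1177 ± 131 in T cells and 740.3 ± 162 in B cells, and only progenitors and T cells were not separated among these neighbours. Its co-chaperone gene Dnajb1 was at 119 ± 34.1 CPM in progenitors and 93.1 ± 12.1 in macrophages, which did not differ beyond their spread (adjusted p = 0.0721, exact permutation test). Endothelial cells (82.6 ± 18.9 CPM), T cells (51.9 ± 7.68) and B cells (35.1 ± 16.4) followed, each below the one before. Hsph1 showed another order. It was at 49.3 ± 10.5 CPM in T cells and 45.7 ± 11.5 in progenitors, not separated from each other, then at 35.4 ± 8.99 in macrophages, 35.4 ± 12.6 in B cells and 23.1 ± 10.00 in endothelial cells, and only the step from progenitors to macrophages passed (8 of 8 libraries, exact permutation test, adjusted p = 0.0208).

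Of the ER members, Hspa5 and Xbp1 were higher in progenitors than in macrophages. Hspa5 was at 836 ± 96.2 CPM in progenitors, 690.1 ± 66.3 in macrophages, 451 ± 232 in B cells, 295 ± 27.5 in endothelial cells and 272 ± 64.5 in T cells. The first step was seen in 7 of 8 libraries (exact permutation test, adjusted p = 0.0469). Xbp1 was at 205 ± 14.3 CPM in progenitors, 167 ± 27.1 in macrophages, 108 ± 13.5 in endothelial cells and 46.5 ± 20.3 in T cells, while B cells spread from 43.6 to 894 CPM and were not separated from their neighbours. These counts do not tell spliced from unspliced Xbp1 mRNA. Dnajb9 led in macrophages at 105 ± 22.9 CPM over progenitors at 77.6 ± 4.57 (7 of 8 libraries, exact permutation test, adjusted p = 0.0368) and was lowest in T cells at 33.8 ± 10.4. Ddit3 ran from 51.8 ± 9.44 CPM in macrophages to 18.7 ± 4.53 in T cells, with B cells, progenitors and endothelial cells between them and not separated. Ppp1r15a was at 300.2 ± 38.0 CPM in macrophages, above progenitors at 246 ± 59.3 in 8 of 8 libraries, and endothelial cells, T cells and B cells (219 ± 57.3, 179 ± 66.0 and 155 ± 57.7 CPM) followed without a step that passed.

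**Figure D1:**
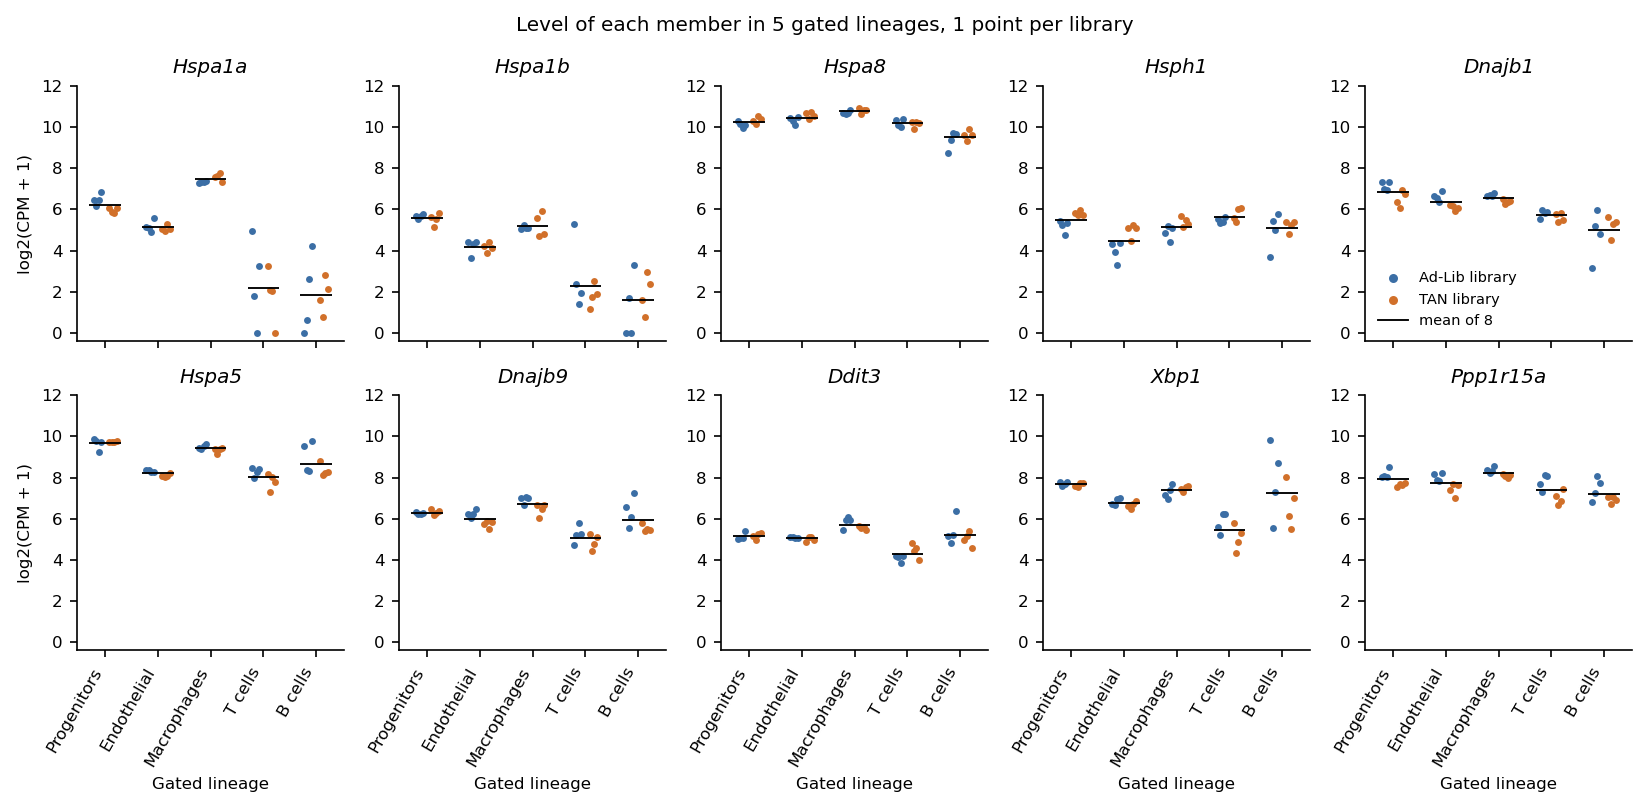
Level of each member as log2(CPM + 1) in the 5 gated lineages, with 1 blue point per Ad-Lib library, 1 orange point per TAN library and a black line at the mean of 8. Mean Hspa1a falls from macrophages (176 CPM) to T cells (6.98 CPM), whereas the lineage means of Hspa8 lie between 740.3 and 1739 CPM and its library points between 432 and 1962 CPM, and the B cell points of Xbp1 spread from 43.6 to 894 CPM.

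The genes whose level ran most like Hspa1a over the 40 lineage-by-library sums, among 10100 genes compared, were Fcgrt (Pearson r 0.947), Aph1b (0.944), Zfhx3 (0.938) and Selenop (0.932). For Hspa5 they were Rpn1 (r 0.906), Ifi211 (0.901), Calr (0.901), Mt2 (0.889) and Myof (0.886), and Rpn1 and Calr encode ER proteins of glycosylation and folding. The sums of a library share its depth and the same 5 gates, so these are descriptions across lineages with no p.

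To determine how TAN feeding perturbs these genes, TAN was compared with Ad-Lib in each lineage and in each progenitor subset. Under TAN feeding Ppp1r15a and Hspa1a were lower in Icam1+ Col15a1+ and F3+ Gdf10+ progenitors and Dnajb1 in the former, Ppp1r15a was also lower in T cells, and Hsph1 was higher in endothelial cells. The ER chaperone genes Hspa5 and Dnajb9, Xbp1, Ddit3, Hspa8 and Hspa1b were called in no gate. A gene was called if edgeR's quasi-likelihood test gave an adjusted p under 0.05 over all genes of the gate and a change of at least 1.5-fold, which is 0.585 on the log2 scale. All 10 members passed the filter on low counts in 6 gates, and 8 of 10 in T and B cells, where Hspa1a and Hspa1b were too low to test.

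The members were chosen with earlier results of these data known, so their counts are set beside the shares of all genes without a test. Among Icam1+ Col15a1+ progenitors 3 of 10 members were lower in TAN, against 0.988% of all genes called lower in that gate (1.37% in either direction). In F3+ Gdf10+ progenitors 2 of 10 were lower, against 0.663% of all genes (0.99% in either direction). In endothelial cells 1 of 10 was higher, against 0.458% of all genes (1.17% in either direction), and in T cells 1 of 8 was lower, against 3.97% (5.13% in either direction). None of the 10 was called in the pooled progenitors (0.835% of all genes called, 1700 of 12094 at an unadjusted p under 0.05), in Dpp4+ Pi16+ progenitors (0.325%, 1055 of 10462) or in macrophages (0.146%, 1335 of 10307). In B cells 0 of 8 were called by edgeR and by DESeq2, where 0.0% of all genes were called and 133 of 6701 had an unadjusted p under 0.05. The median log2 change of the members was -0.15 in Icam1+ Col15a1+ progenitors, -0.05 in F3+ Gdf10+ progenitors, -0.12 in endothelial cells, -0.20 in T cells and -0.53 in B cells, and within 0.06 of 0 in the other gates, while that of all genes tested was between -0.01 and 0.02.

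**Figure D2:**
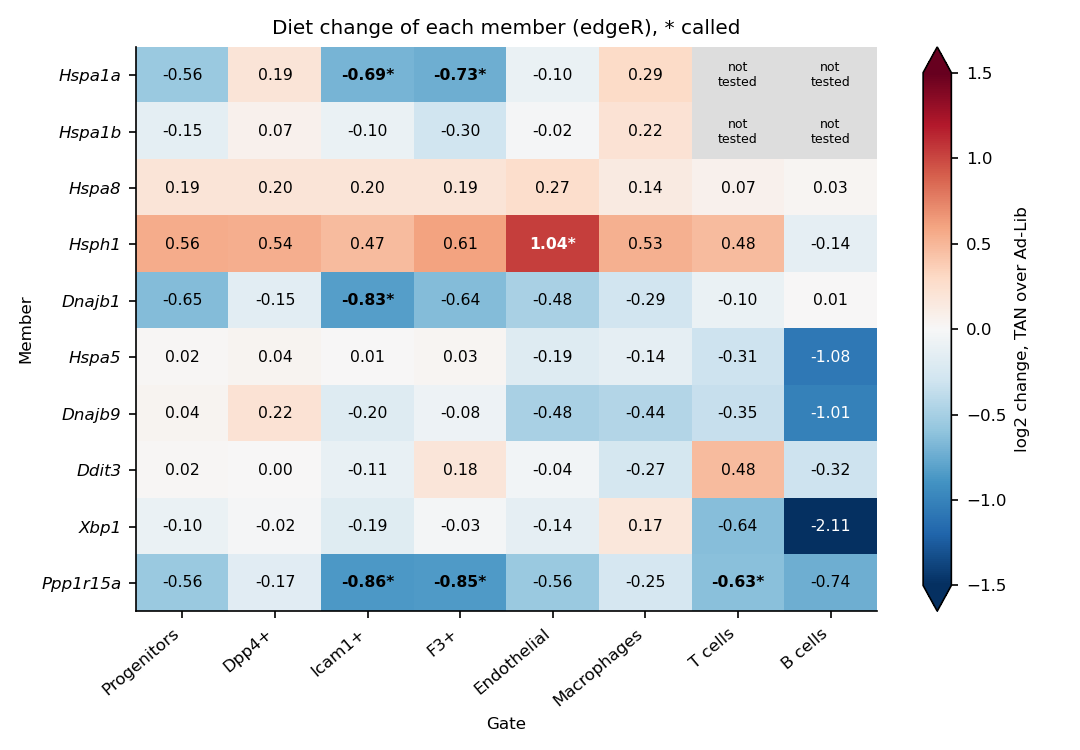
Fitted log2 change, TAN over Ad-Lib, of each member (rows) in each gate (columns), red for higher in TAN and blue for lower (full colour from 1.5 on), with a star where the member was called and grey where the filter left it untested. The 7 stars lie on Ppp1r15a in 3 gates, Hspa1a in 2, Dnajb1 in Icam1+ Col15a1+ progenitors and Hsph1 in endothelial cells, whereas Hspa8 stays between 0.03 and 0.27.

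Ppp1r15a, which resets translation after stress, gave the clearest difference. In Icam1+ Col15a1+ progenitors it stood at 241, 245, 257 and 348 CPM in Ad-Lib 1, 3, 5 and 7 and at 127, 152, 161 and 173 CPM in TAN 2, 4, 6 and 8. The groups did not overlap, and Ad-Lib 7 was the highest library. The means were 273 ± 50.8 and 153 ± 19.5 CPM (SD, n = 4), or -0.86 ± 0.11 on the log2 scale (fitted change ± SE; edgeR, adjusted p = 0.00104), and the call held in all 8 fits that left out 1 library (adjusted p 0.000742 to 0.00743). In F3+ Gdf10+ progenitors it was at 238, 255, 287 and 359.7 CPM in Ad-Lib and at 124, 158, 171 and 204 CPM in TAN, again without overlap. The log2 change there was -0.85 ± 0.14 (edgeR, adjusted p = 0.00337), and this call too held in 8 of 8 such fits.

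In Dpp4+ Pi16+ progenitors, the least committed of the subsets, Ppp1r15a was at 286, 306, 233 and 395 CPM in Ad-Lib and at 284, 278, 267 and 249 CPM in TAN. The groups overlapped, and the log2 change was -0.17 ± 0.13 (edgeR, adjusted p = 0.741). Over the 3 subsets, with the library as a block, the change of Ppp1r15a differed (edgeR F test, adjusted p = 0.00945, beside 0.689% of 11183 genes that passed). It was lower by -0.70 ± 0.14 in Icam1+ Col15a1+ and by -0.69 ± 0.14 in F3+ Gdf10+ than in Dpp4+ Pi16+ progenitors. The difference missed the threshold without TAN 2 (0.0530) and without TAN 4 (0.0572). This comparison of subsets was added after their values were seen.

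Hspa1a, the inducible HSP70, was lower in the same subsets. In Icam1+ Col15a1+ progenitors it was at 135, 98.6, 124 and 180.1 CPM in Ad-Lib and at 91.5, 75.6, 85.8 and 86.7 CPM in TAN. The ranges did not overlap, and the TAN libraries lay closer together than the Ad-Lib libraries (84.9 ± 6.70 against 134 ± 34.1 CPM). The log2 change was -0.69 ± 0.14 (edgeR, adjusted p = 0.0196) and the call was lost without TAN 4, Ad-Lib 7 or TAN 8 (adjusted p 0.0506 to 0.0742). In F3+ Gdf10+ progenitors it was at 105, 86.8, 106 and 121 CPM in Ad-Lib and at 78.8, 69.9, 51.2 and 53.7 CPM in TAN, with no overlap. The log2 change was -0.73 ± 0.14 (edgeR, adjusted p = 0.0152), and the call was lost only without TAN 8 (0.0681).

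In Dpp4+ Pi16+ progenitors Hspa1a was at 34.9 to 40.5 CPM in Ad-Lib and at 30.7 to 56.1 CPM in TAN. The groups overlapped, with a log2 change of 0.19 ± 0.13 (edgeR, adjusted p = 0.706). The change differed between the subsets (edgeR F test, adjusted p = 0.0125), lower by -0.86 ± 0.17 in Icam1+ Col15a1+ and by -0.92 ± 0.18 in F3+ Gdf10+ than in Dpp4+ Pi16+ progenitors, and missed the threshold without TAN 8 (0.0778). Its copy Hspa1b had log2 changes of -0.10 ± 0.14 in Icam1+ Col15a1+ and -0.30 ± 0.14 in F3+ Gdf10+ progenitors (edgeR, adjusted p = 0.803 and 0.425). With the UMIs of both copies summed (Hspa1a+Hspa1b), the log2 change was -0.51 ± 0.12 and -0.54 ± 0.11 in these subsets (edgeR, adjusted p = 0.0395 and 0.0243), under the 1.5-fold minimum, so the summed copies were called in neither.

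Dnajb1, the HSP40 partner of HSP70, was lower in 1 subset by the same rule. In Icam1+ Col15a1+ progenitors it was at 276, 199, 178 and 214 CPM in Ad-Lib and at 107, 82.5, 178 and 144 CPM in TAN. TAN 6 reached the level of Ad-Lib 5, so the groups touched. The means were 217 ± 42.3 and 128 ± 41.9 CPM, a log2 change of -0.83 ± 0.18 (edgeR, adjusted p = 0.0282). The call was lost in 5 of the 8 fits with a library left out, those without Ad-Lib 1, TAN 2, Ad-Lib 3, TAN 4 or Ad-Lib 7 (0.0515 to 0.105). In F3+ Gdf10+ progenitors the log2 change was -0.64 ± 0.17 (edgeR, adjusted p = 0.0698) and in Dpp4+ Pi16+ progenitors -0.15 ± 0.15 (0.813), and the F test over the 3 subsets did not pass (edgeR, adjusted p = 0.0990). It passed without TAN 6 (0.0424) and without Ad-Lib 7 (0.0305). Taken alone, the Icam1+ Col15a1+ term differed from Dpp4+ Pi16+ by -0.69 ± 0.17 (edgeR, adjusted p = 0.0386), and missed the threshold without Ad-Lib 1, TAN 2, Ad-Lib 3, TAN 4 or TAN 8 (0.0942 to 0.144).

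Hsph1, the HSP110 gene, went the other way in all 3 subsets and was called in none. In the pooled progenitors it was at 41.9, 37.2, 26.2 and 40.0 CPM in Ad-Lib and at 55.3, 52.5, 61.5 and 51.2 CPM in TAN, without overlap. The log2 change was 0.56 ± 0.14 (edgeR, adjusted p = 0.0715), and 0.54, 0.47 and 0.61 in the Dpp4+ Pi16+, Icam1+ Col15a1+ and F3+ Gdf10+ subsets (adjusted p = 0.0838, 0.189 and 0.0994). A difference between the subsets was not detected (edgeR F test, adjusted p = 0.943). In the pooled progenitors Ppp1r15a and Hspa1a had log2 changes of -0.56 ± 0.10 and -0.56 ± 0.12 (edgeR, adjusted p = 0.0187 and 0.0406), which passed on p (as 1.43% of all genes did) but not on 1.5-fold, and Dnajb1 one of -0.65 ± 0.16 (0.0638). In all, 3 of 10 members had groups that did not overlap there, beside 6.99% of all genes. The count was 3 of 10 in Icam1+ Col15a1+ (7.49% of all genes), 3 of 10 in F3+ Gdf10+ (6.48%) and 1 of 10, Hsph1, in Dpp4+ Pi16+ progenitors (4.69%).

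**Figure D3:**
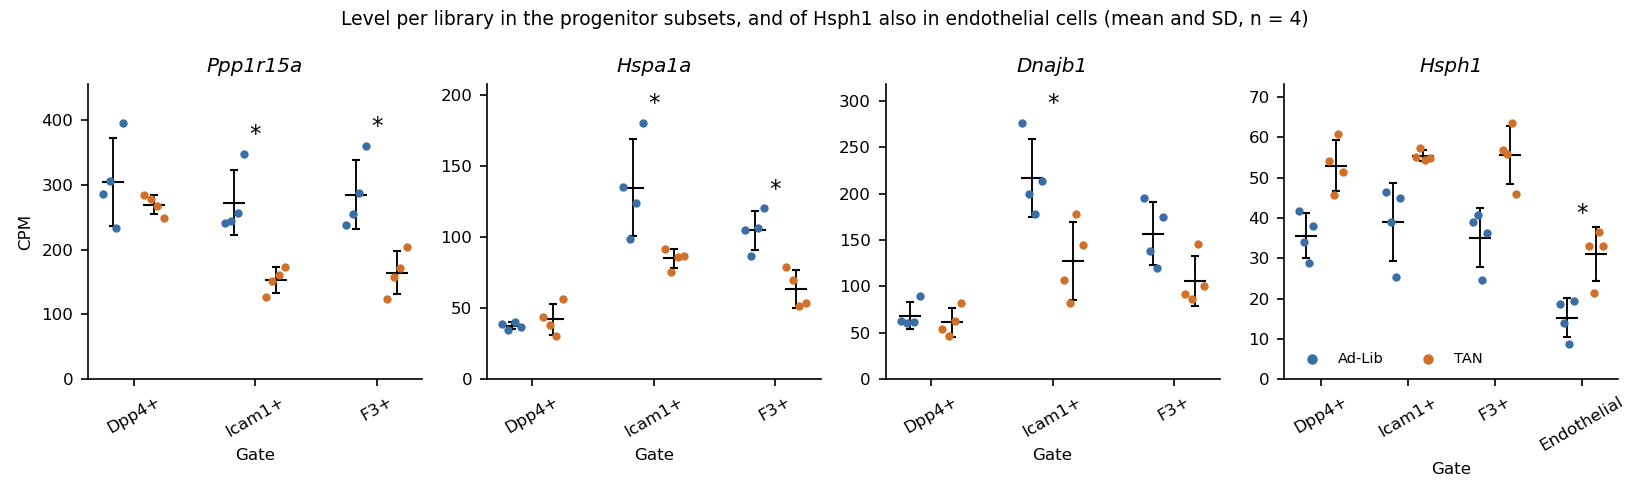
CPM per library of Ppp1r15a, Hspa1a, Dnajb1 and Hsph1 in the 3 progenitor subsets, and of Hsph1 also in endothelial cells, with Ad-Lib in blue, TAN in orange, the mean and SD of 4 libraries in black and a star over each called pair. In Icam1+ Col15a1+ and F3+ Gdf10+ progenitors the TAN points of Ppp1r15a (124 to 204 CPM) lie under the Ad-Lib points (238 to 359.7 CPM), and in Dpp4+ Pi16+ progenitors they overlap.

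No ER member but Ppp1r15a stood out in progenitors. Hspa5 was at 939.6, 879.5, 611 and 845 CPM in Ad-Lib and at 849, 836, 862 and 865 CPM in TAN, with Ad-Lib 5 the lowest library and the TAN libraries inside the Ad-Lib range. Its log2 change was 0.02 ± 0.13 (edgeR, adjusted p = 0.970). Dnajb9, Ddit3 and Xbp1 had log2 changes of 0.04 ± 0.08, 0.02 ± 0.10 and -0.10 ± 0.07. In the Dpp4+ Pi16+, Icam1+ Col15a1+ and F3+ Gdf10+ subsets Dnajb9 had log2 changes of 0.22 ± 0.11, -0.20 ± 0.10 and -0.08 ± 0.11 (edgeR F test of the difference, adjusted p = 0.257). The constitutive Hspa8 had one of 0.19 ± 0.11 in the pooled progenitors (edgeR, adjusted p = 0.475).

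Other measures moved with the diet in these cells. The 18 immediate early genes, fast-responding transcription factor and feedback genes such as Fos and Btg2, summed to 32245 to 40971 CPM in Ad-Lib and 25507 to 30198 CPM in TAN in Icam1+ Col15a1+ progenitors, and to 29101 to 34909 against 23025 to 25720 CPM in F3+ Gdf10+ progenitors. Neither pair of ranges overlapped, whereas in Dpp4+ Pi16+ progenitors they did (17273 to 26590 against 16955 to 22498 CPM). Of the 18, 7 were called lower in Icam1+ Col15a1+ progenitors, with a median log2 change of -0.56 over the list, 4 in F3+ Gdf10+ (median -0.44) and 0 in Dpp4+ Pi16+ (median -0.10). Adipocyte transcripts summed to 383 to 444 CPM in Ad-Lib and 1155 to 2214 CPM in TAN in Icam1+ Col15a1+ progenitors, with Fabp4 called at a log2 change of 1.88 ± 0.17 (edgeR, adjusted p = 5.74e-05). They summed to 318 to 539.7 against 866 to 1161 CPM in F3+ Gdf10+ progenitors, where Fabp4 was called at 1.37 ± 0.15 and the other 3 genes tested were below 0, so that the list had a median of -0.11. In Dpp4+ Pi16+ progenitors they summed to 161 to 245 against 298 to 345 CPM, also without overlap, and none was called by edgeR. The median mitochondrial share of progenitors was 1.54% to 2.05% in Ad-Lib and 1.82% to 2.28% in TAN. The part of these measures in the changes of Ppp1r15a, Hspa1a and Dnajb1 was not tested.

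In endothelial cells Hsph1 rose with TAN feeding. It was at 18.7, 14.1, 8.86 and 19.5 CPM in Ad-Lib and at 33.1, 21.3, 36.5 and 33.1 CPM in TAN. The groups did not overlap, with TAN 4 the nearest to Ad-Lib. The means were 15.3 ± 4.90 and 31.0 ± 6.67 CPM, a log2 change of 1.04 ± 0.23 (edgeR, adjusted p = 0.0443). The call was lost in 6 of 8 fits, those without Ad-Lib 1, TAN 2, Ad-Lib 3, TAN 6, Ad-Lib 7 or TAN 8 (edgeR, adjusted p 0.0640 to 0.0946). It was also lost with cells of at least 2000 UMIs only (edgeR, adjusted p = 0.0518).

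No other endothelial member was called, and 4 more had groups that did not overlap, all lower in TAN. Dnajb9 was at 74.0, 64.9, 74.6 and 88.9 CPM in Ad-Lib and at 52.6, 57.5, 44.0 and 56.3 CPM in TAN, without overlap. Its log2 change of -0.48 ± 0.11 had an adjusted p of 0.0457 by edgeR, as did 1.87% of all genes at a p under 0.05, and was under 1.5-fold. Dnajb1 (99.3, 91.6, 82.2 and 117 against 73.2, 71.2, 59.9 and 66.9 CPM) and Ppp1r15a (291, 238, 229 and 297 against 168, 202, 129 and 200.3 CPM) did not overlap either, with log2 changes of -0.48 ± 0.11 and -0.56 ± 0.15 (edgeR, adjusted p = 0.0605 and 0.0832). Hspa5 was at 304 to 326 CPM in Ad-Lib and 256 to 297 CPM in TAN (log2 change -0.19 ± 0.08, edgeR, adjusted p = 0.254). Hspa8, at 1105 to 1438 CPM in Ad-Lib and 1330 to 1695 CPM in TAN, overlapped and had a log2 change of 0.27 ± 0.12 (edgeR, adjusted p = 0.275). With Hsph1 that made 5 of 10 members whose groups did not overlap, beside 9.24% of all genes in this gate. The endothelial gate differed between diets in mitochondrial share as well, at a median of 1.77% to 2.29% in Ad-Lib and 2.67% to 3.40% in TAN. The ranges overlapped for the sum of 3 mural cell markers (826 to 1335 against 417 to 999 CPM) and for that of 5 T cell markers (7.65 to 77.3 against 28.4 to 349 CPM). Their part in the result was not tested.

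In macrophages no member was called. Hspa1a was at 153, 159, 162 and 166 CPM in Ad-Lib and at 190.1, 198, 219 and 159.6 CPM in TAN, overlapping through TAN 8, with a log2 change of 0.29 ± 0.10 (edgeR, adjusted p = 0.249). Dnajb1 was at 99.9 to 109.9 CPM in Ad-Lib and 76.1 to 91.2 CPM in TAN, with no overlap and a log2 change of -0.29 ± 0.09 (adjusted p = 0.182). Dnajb9 (102 to 129.9 against 64.9 to 101 CPM, log2 change -0.44 ± 0.11) and Ppp1r15a (302 to 371 against 251 to 285 CPM, -0.25 ± 0.09) did not overlap either, so that 3 of 10 members stood apart beside 5.46% of all genes. The other 6 members overlapped, with log2 changes from -0.27 ± 0.13 for Ddit3 to 0.53 ± 0.18 for Hsph1 (edgeR, adjusted p 0.229 to 0.707).

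In T cells Ppp1r15a was at 206, 156, 274 and 270.4 CPM in Ad-Lib and at 136, 102, 116 and 174 CPM in TAN. The groups overlapped because TAN 8 lay above Ad-Lib 3. The means were 227 ± 56.4 and 132 ± 31.5 CPM, a log2 change of -0.63 ± 0.16 (edgeR, adjusted p = 0.0379). The call was lost without Ad-Lib 1, TAN 4, Ad-Lib 5, TAN 6 or Ad-Lib 7 (0.100 to 0.133), with no filter on low counts (log2 change -0.56) and with cells of mixed gate genes kept (0.143). The other 7 members tested had log2 changes from -0.64 ± 0.28 (Xbp1, edgeR, adjusted p = 0.203) to 0.48 ± 0.17 (Hsph1, 0.115), and no member had groups that did not overlap, beside 11.4% of all genes. Of the 18 immediate early genes, 9 were called lower in T cells, with a median log2 change of -0.85. Markers of other cells in the T cell gate lay higher in Ad-Lib without overlap for the 2 mast cell markers (4.22 to 20.1 against 0.326 to 3.71 CPM) and the 4 plasma cell markers (29.8 to 40.3 against 13.1 to 27.8 CPM). The ranges overlapped for the 5 progenitor markers (87.4 to 936 against 28.1 to 94.5 CPM) and the 5 macrophage markers (27.7 to 183 against 8.49 to 28.4 CPM). The 5 endothelial markers summed to 4.25 to 13.2 against 8.13 to 19.4 CPM and the 5 B cell markers to 9.03 to 12.8 against 3.71 to 16.3 CPM. The median mitochondrial share was 2.00% to 2.64% in Ad-Lib and 2.85% to 3.56% in TAN, without overlap. The T cell gate held 55 to 247 cells per Ad-Lib library and 132 to 814 per TAN library. It was not split into T cell types, whose mix may differ between the diets. The part of these measures in the result was not tested.

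In the B cell gate 3 ER members had fitted changes beyond 1.5-fold that were not called, besides Ppp1r15a. Xbp1 was at 894, 46.2, 157 and 421 CPM in Ad-Lib and at 263, 69.6, 43.6 and 126 CPM in TAN. The ranges overlapped widely, with Ad-Lib 1 the highest, and 0 of 8 members had groups apart here (1.85% of all genes). The log2 change was -2.11 ± 0.92 (edgeR, adjusted p = 0.9999), with -1.08 ± 0.46 for Hspa5 and -1.01 ± 0.42 for Dnajb9. The libraries also differed in cells with Jchain, a gene of antibody-secreting plasma cells. Cells with at least 3 Jchain UMIs numbered 10, 8, 1 and 3 in Ad-Lib 1, 3, 5 and 7, out of 21, 457, 44 and 20, and 11, 3, 0 and 8 in TAN 2, 4, 6 and 8, out of 86, 407, 508 and 312.

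Without those cells Xbp1 was at 676, 35.7, 33.9 and 64.9 CPM in Ad-Lib and at 19.4, 35.0, 43.6 and 40.2 CPM in TAN. In Ad-Lib 5, Ad-Lib 7, TAN 2 and TAN 8 the level came close to that of the libraries with few Jchain cells, and only Ad-Lib 1, with 11 cells left, stayed high. The log2 changes became -1.01 ± 0.56 for Xbp1, -0.43 ± 0.24 for Hspa5 and -0.51 ± 0.27 for Dnajb9, again not called (edgeR, adjusted p = 0.9999). For Hspa5 and Dnajb9 not every library moved down: Hspa5 went from 735 to 915 CPM in Ad-Lib 1 and from 888 to 227 CPM in Ad-Lib 7. Dnajb9 went from 93.3 to 99.4 CPM in Ad-Lib 1, from 152 to 162 CPM in Ad-Lib 7 and from 54.6 to 32.4 CPM in TAN 2. Ppp1r15a kept a log2 change of -0.70 ± 0.21 against -0.74 ± 0.23 with all cells, with the same adjusted p.

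**Figure D4:**
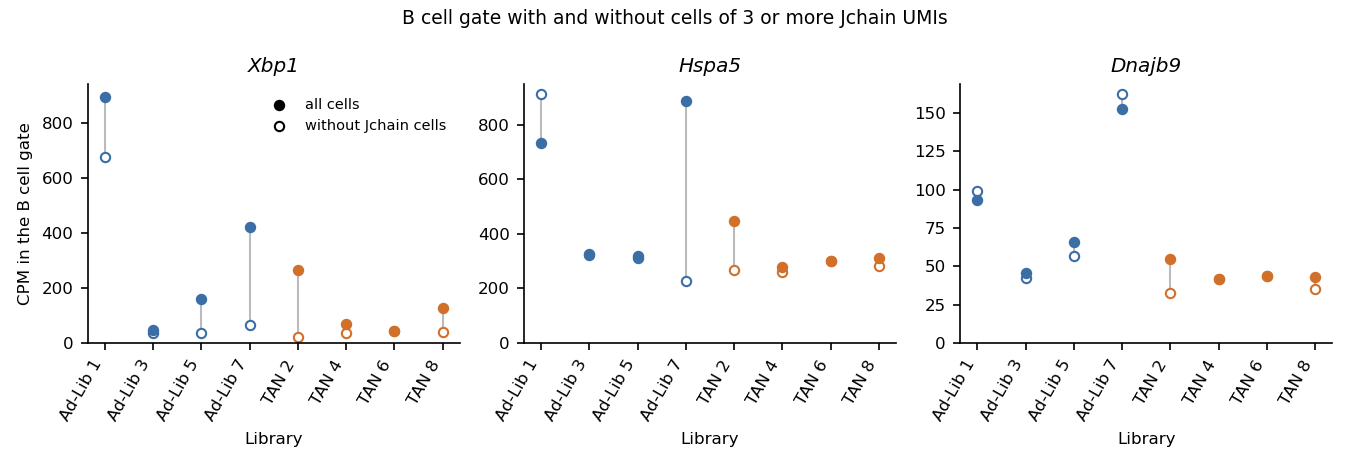
CPM of Xbp1, Hspa5 and Dnajb9 in the Cd79a+ gate of each library (Ad-Lib blue, TAN orange), filled for all cells and open without the cells of at least 3 Jchain UMIs, joined by a grey line. In Ad-Lib 7 Xbp1 moves from 421 to 64.9 CPM and in TAN 2 from 263 to 19.4 CPM, while TAN 6, with 0 such cells, stays at 43.6 CPM.

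The change of a member in one lineage was set against the others directly. Over the 5 lineages, with the library as a block, 0 of the 10 members had a diet change that differed (edgeR F test of the 4 terms, beside 2.9% of 13437 genes that passed). The lowest adjusted p was that of Hsph1 (0.0842), and without Ad-Lib 3 those of Xbp1 and Dnajb9 fell to 0.0319 and 0.0360. The calls in endothelial cells and T cells were thus not shown to differ from other lineages. This fit shared 1 spread per gene over all lineages, the B cell gate with few cells included, so it could miss a difference. For Xbp1 the endothelial term had an SE of 0.58, against 0.08 and 0.07 in the separate endothelial and progenitor fits. For Hsph1 it was 0.18, against 0.23 and 0.14. Within the progenitors, the F test over subsets passed for Ppp1r15a and Hspa1a, as given above, and for Dnajb1 only the Icam1+ Col15a1+ term did.

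Other genes of the same pathways were taken from lists. Among 26 other cytosolic and mitochondrial chaperones and HSF1 targets (19 to 26 tested), the median log2 change was 0.09 to 0.27 in all 8 gates. Called from it were Fkbp4, an HSP90 co-chaperone, higher in Icam1+ Col15a1+ progenitors (0.59 ± 0.13), and the HSF1 regulator Ier5, lower in F3+ Gdf10+ progenitors (-0.77 ± 0.16). The mitochondrial chaperonin genes were higher in T cells, Hspe1 by 0.72 ± 0.16 and Hspd1 by 0.59 ± 0.15, and Hspe1 in endothelial cells by 0.63 ± 0.14 (edgeR, adjusted p 0.0232 to 0.0446 for these 5).

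None of the 21 other ER chaperone and ER-associated degradation genes, of which 20 to 21 were tested, and none of the 14 UPR sensors and secretory genes of the IRE1 branch was called in any gate by edgeR. Median log2 changes of the ER chaperone list were 0.04 to 0.15 in progenitors, their subsets, endothelial cells and macrophages, -0.22 in T cells and -0.60 in B cells, where 20 of 21 were below 0. The B cell gate also held plasma cell markers at levels that differed between libraries, and their part in this median was not tested. The 21 ATF4 branch genes (12 to 19 tested) were mixed. Asparagine synthetase, Asns, was higher in F3+ Gdf10+ (1.02 ± 0.18) and pooled progenitors (0.68 ± 0.14), whereas Atf4 itself was lower in Icam1+ Col15a1+ progenitors (-0.72 ± 0.11). Ddit4, an inhibitor of mTORC1, was lower in endothelial cells at 25.5 ± 2.65 against 60.6 ± 10.5 CPM (-1.20 ± 0.13). In T cells Atf3 (-2.02 ± 0.32), Atf4 (-0.73 ± 0.16) and Eif4ebp1 (-0.92 ± 0.22) were lower. Adjusted p-values of these ATF4-branch calls were 0.00118 to 0.0373 by edgeR.

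Among the immediate early genes, those called in Icam1+ Col15a1+ progenitors included Btg2 (1053 ± 205 against 575 ± 57.9 CPM, log2 change -0.90 ± 0.12), Fosb (-0.60 ± 0.09), Klf4 (-0.65 ± 0.12) and Nr4a1 (-1.23 ± 0.26), the last tied in adjusted p with Ier3 and Dusp1 (0.0242, edgeR). In F3+ Gdf10+ progenitors the 4 called were Klf6 (-0.69 ± 0.12), Btg2 (-0.85 ± 0.15), Nr4a1 (-1.14 ± 0.24) and Klf4 (-0.59 ± 0.13). In T cells Klf4, Egr1, Fos and Fosb led, with log2 changes from -2.15 ± 0.34 to -1.69 ± 0.27. In the pooled progenitors Btg2 alone was called (-0.64 ± 0.14), and in endothelial cells, macrophages and B cells none was by edgeR, with medians of -0.29, -0.10 and -0.38.

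**Figure D5:**
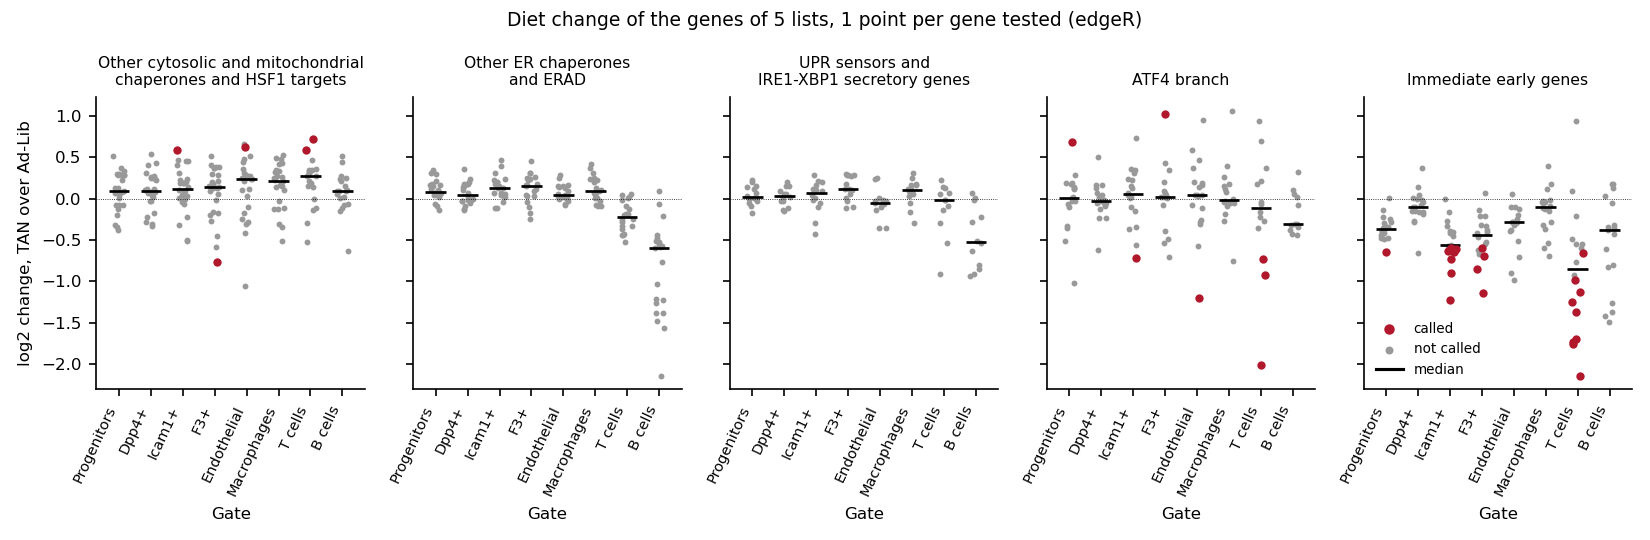
Fitted log2 change, TAN over Ad-Lib, of every tested gene of 5 lists in each gate, with called genes in red, others in grey and a black line at the list's median. The medians of the chaperone lists sit near or just above 0 outside T and B cells, and that of the ER chaperone list lies at -0.60 in B cells. The medians of the immediate early genes lie below 0, at -0.56 in Icam1+ Col15a1+ progenitors and -0.85 in T cells.

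A difference in summed level can come from more cells with the transcript or from more transcript per cell. After each cell was thinned to 1000 UMIs, which excluded 35 progenitors from the Ad-Lib libraries (of 4687) and 70 from the TAN libraries (of 2995), the share of progenitors with a Ppp1r15a UMI was 22.2% ± 3.27 in Ad-Lib and 16.1% ± 1.04 in TAN. It was 71.9% ± 3.73 and 56.9% ± 4.996 before thinning, at median depths of 10008 to 11397 and 8875 to 10497 UMIs. The thinned share with Dnajb1 was 10.2% ± 1.48 against 6.92% ± 1.53 in progenitors, and that with Hsph1 was 1.32% ± 0.489 against 2.97% ± 0.661 in endothelial cells (unthinned, 6.43% ± 2.26 against 12.3% ± 2.39). Each of these groups did not overlap (two-sided exact permutation test, p = 0.0286, the smallest that 4 against 4 libraries allow, and 0.143 adjusted over 50 comparisons). The shares lay on the same side as the summed levels, and none passed the threshold after adjustment.

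Hspa1a was seen in 6.47% ± 1.20 of Ad-Lib and 4.84% ± 0.802 of TAN progenitors after thinning (exact permutation test, p = 0.0857) and in 11.7% ± 0.553 and 13.1% ± 1.88 of macrophages. The shares in T cells, 0.697% ± 0.783 and 0.261% ± 0.189, and in B cells, 0.486% ± 0.645 and 0.205% ± 0.0977, are those of cell types with little Hspa1a, beside which free RNA can be read. Before thinning the median depth of T cells was 4598 to 5927 UMIs.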

How the data were processed

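Single-cell 3′ RNA-seq of 8 libraries (4 Ad-Lib, 4 TAN) was used. The authors deposited raw UMI counts per gene and cell barcode, 1 matrix per library, made from reads in exons on mm10 (GRCm38). The submitters' processing notes name Cell Ranger 3.0.2, and the file headers 6.0.1. The annotation is not given in the sources used here, and 32235 of 32285 identifiers matched GENCODE M21.

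The members and lists were chosen with earlier results of these data known. Cells of 700 to 30000 UMIs, 200 to 8000 genes and at most 10% mitochondrial UMIs were kept. No doublet caller was run, and 3985 cells with UMIs of several gate genes were left out. UMIs were summed per library and gate (at least 10 cells) and tested with edgeR 4.0.16 in R 4.3.3 (quasi-likelihood, TMM, filterByExpr, Benjamini-Hochberg over all genes of a gate). The study's Wilcoxon test over cells was not used, since libraries are the replicates. Standard errors are the log2 change divided by the root of F. CPM are summed UMIs per 1000000. Progenitor subsets were set by the marker pair (Dpp4 and Pi16, Icam1 and Col15a1, or F3 and Gdf10) with the most UMIs, and 490 cells with no leading pair were left out of them. Lineages and subsets were compared by lineage-by-diet terms with the library as a block. Levels and shares were tested by exact permutation (SciPy 1.17.1). All members were tested in each gate where they passed the filter. Named from each list are at most 4 called genes per gate, in order of adjusted p, with ties. One result on genes of like pattern is not reported here.

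Tested on simulated counts, the fit recovered 90.9% of 1-unit log2 changes in progenitors (11994 genes) and 81.1% in endothelial cells (11428 genes). It recovered 70.8% in T cells (7425 genes) and 29.7% in B cells (6449 genes). The gates had 5 to 17 false calls each. Alternatives were DESeq2 1.42.0, no filter on low counts, no minimum change, other gates and cell filters, summed Hspa1a and Hspa1b copies, and each library left out. Sequences came from RefSeq, GRCm38.p6. Low counts carry counting error, which is largest for Hspa1b (5374 UMIs in the 5 gates), Ddit3 (5698) and Hsph1 (6017).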

Additional observations from a re-analysis of the deposited data

Results flagged for a closer look

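The diet change differed between progenitor subsets for 2 members in a test of the difference itself, added after the values were seen. For Ppp1r15a the log2 change was lower than in Dpp4+ Pi16+ progenitors by -0.70 in Icam1+ Col15a1+ and by -0.69 in F3+ Gdf10+ progenitors (edgeR F test, adjusted p = 0.00945). For Hspa1a the differences were -0.86 and -0.92 (edgeR F test, adjusted p = 0.0125).

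Of 160 groups of 4 libraries examined, 12 held a library far from the other 3 by Dixon's criterion at the 95% level, and chance alone flags about 1 in 20 groups. Ad-Lib 7 stood high for Ppp1r15a in the pooled progenitors (368 CPM) and in Icam1+ Col15a1+ progenitors (348 CPM), for Ddit3 in the pooled progenitors (41.3 CPM) and in B cells (80.7 CPM), and for Dnajb1 in Dpp4+ Pi16+ progenitors (90.0 CPM). Ad-Lib 3 stood low for Dnajb9 in F3+ Gdf10+ progenitors (71.4 CPM) and in macrophages (102 CPM) and for Hspa1b in endothelial cells (11.6 CPM). In T cells, Hspa1b was high in Ad-Lib 1 (38.3 CPM), Ddit3 low in Ad-Lib 5 (13.2 CPM) and Hspa8 low in TAN 4 (975 CPM). In B cells Dnajb9 was high in TAN 2 (54.6 CPM). The Ppp1r15a call in Icam1+ Col15a1+ progenitors held without Ad-Lib 7.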

How the results depend on the processing

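The 1294 refits covered 82 pairs of a gate with a member or with the summed HSP70 copies. Of these refits, 1249 kept the call or the lack of one, 25 lost it and 20 gained one. All 62 changes of sign were in uncalled values under 1 SE, and no called value changed sign. The pooled progenitors, with 0 members called, had 2 with no minimum change (Ppp1r15a and Hspa1a, beside 173 of 12094 genes). They had 1, Dnajb1, with no filter, under DESeq2, with a gate of 2 UMIs or with mixed cells kept. All genes called there numbered 192 of 19158, 146 of 12094, 107 of 11904 and 80 of 12309. Summing the HSP70 copies left 1 of 2 in F3+ Gdf10+ progenitors (99 of 10105 genes called). It left 2 of 3 in Icam1+ Col15a1+ progenitors (142 of 10427). F3+ Gdf10+ progenitors had 3, with Dnajb1 gained, with no filter, under DESeq2 and with a gate of 2 UMIs. All genes called there numbered 270 of 16827, 89 of 10106 and 116 of 9979. In endothelial cells the count was 2 with no minimum change (216 of 11575 genes). It was 0 with cells of at least 2000 UMIs (120 of 11497), against 1. In T cells it was 0 with no filter (1055 of 16711 genes called) and 0 with mixed cells kept (262 of 8238), against 1. Leaving out 1 library gave 0 to 2 calls in the pooled progenitors, 0 to 1 in Dpp4+ Pi16+, 1 to 3 in Icam1+ Col15a1+ and 1 to 3 in F3+ Gdf10+ progenitors, 0 to 1 in endothelial cells, 0 to 0 in macrophages, 0 to 2 in T cells and 0 to 0 in B cells. Of all genes tested, these fits called 28 of 12351 to 140 of 12303 in the pooled progenitors. The range was 80 of 10728 to 150 of 10458 in Icam1+ Col15a1+ and 41 of 10266 to 116 of 10327 in F3+ Gdf10+ progenitors. It was 55 of 11839 to 234 of 11754 in endothelial cells and 91 of 7006 to 984 of 6944 in T cells. Not in these totals, leaving out 1 library gave 0 to 2 members that differed between lineages (Xbp1 and Dnajb9 gained without Ad-Lib 3) and 1 to 3 between subsets. Passing steps between lineages went from 20 of 40 to 15 to 18, where 7 libraries allow only larger p-values, and shares of cells without overlap from 10 of 50 to 11 to 15, a count not made over all genes. No paired analysis was possible because no replicate number occurs in both diets. With 4 libraries a diet, simulated 1-unit log2 changes were mostly within reach except in the B cell gate. Smaller changes, which most of the calls above are, were not simulated.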
